A study of Bos indicus with 6 samples.

Results

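Calcium ions carry the signal that makes smooth muscle contract, and they also act in ciliary beat and in secretion, so the oviduct depends on the proteins that move calcium across membranes. The genes described here are 67 of the 24616 rows of the deposited isthmus table, and they encode calcium channels, calcium pumps, the release channels of the intracellular store and a few proteins that regulate them. They were picked by a rule on the symbol that uses no expression value, but the choice was made with earlier results of these data known. The symbols cover the pore and auxiliary subunits of voltage-gated channels (CACNA, CACNB and CACNG), the receptors ITPR1 to ITPR3 and RYR1 to RYR3, the pumps of the ATP2A, ATP2B and ATP2C families, the store proteins PLN, CASQ1 and CASQ2, the store sensors STIM1 and STIM2, the channels ORAI1 to ORAI3, and the TRPC, TRPM and TRPV channels. Each symbol stood on 1 row. The rule also takes TRPC4AP, which encodes a protein associated with a channel and is not itself a channel.

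Calcium enters a cell from outside through voltage-gated channels, which open on depolarization, through ORAI channels, which open when the store is empty, and through TRP channels, which respond to receptors, lipids, temperature or stretch. It is released from the endoplasmic reticulum through inositol trisphosphate receptors and ryanodine receptors. Pumps then return it to the store (ATP2A), push it out of the cell (ATP2B) or move it, with manganese, into the Golgi apparatus (ATP2C). In smooth muscle the voltage-gated and release channels drive contraction, and in the ciliated and secretory cells of the oviduct epithelium the release channels and pumps serve ciliary beat and secretion.

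The isthmus is the part of the oviduct next to the uterus, and it was taken from the side that carried the corpus luteum (CL), as tissue that holds muscle, epithelium and connective tissue together. The study compared cows that ovulated a larger follicle and formed a larger CL (LF/LCL) with cows that ovulated a smaller follicle and formed a smaller CL (SF/SCL), to learn how the endocrine setting around ovulation shapes the oviduct transcriptome. There were 3 LF/LCL cows (617, 79 and 527) and 3 SF/SCL cows (856, 489215 and 97), with 1 RNA-seq library for each cow. All were multiparous, non-lactating Nelore cattle (Bos indicus) in which examination found no gross reproductive abnormality. The tissue was collected on day 4 after the GnRH dose that induced ovulation. Before the treatments below, the cows were pre-synchronized with a GnRH agonist and then a prostaglandin F analog. Every cow in both groups carried an intravaginal progesterone device and was given estradiol benzoate at its insertion, a prostaglandin F analog at its removal and again after, and the GnRH agonist buserelin to induce ovulation. In the LF/LCL group the device was removed 42 h before GnRH and an additional dose of prostaglandin F analog was given at insertion. In the SF/SCL group the device was removed 30 h before GnRH. The cows sequenced were those at the far ends of a ranking on follicle size, CL size and hormone levels, so they are not a random draw from the 2 groups.

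The libraries held 23899117 to 34193164 uniquely mapped reads. Values are normalized counts, that is reads divided by a size factor that sets the libraries to a common depth, and they do not correct for the length of a gene. Levels are therefore compared between cows and not between genes. The library of cow 489215 stood apart from the others of its group. It held the lowest or the highest value of the 6 libraries for 72.4% of the 15387 genes tested, so the main results are given with this cow and without it. The cow was singled out by these same values. All p-values from fits without it therefore describe the remaining cows and are not evidence of a difference between the groups.

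Markers of the tissue's cell types also differed between the cows. The summed normalized count of 8 smooth muscle markers (of 10 listed, ACTG2 and MYOCD having no row) ranged from 728721 to 847464 in LF/LCL cows, and it was 339479 in cow 856, 399048 in cow 97 and 1227280 in cow 489215. The high sum of cow 489215 came with 533926 for ACTA2 and 270402 for TAGLN, while MYH11, the smooth muscle myosin, was at 116653 in this cow and at 137623 to 191119 in LF/LCL cows. Markers of secretory and general epithelium (7 of 8 listed, without CDH1) summed to 26125 to 38091 in LF/LCL cows, 59717 in cow 489215, 315137 in cow 856 and 376304 in cow 97, and OVGP1, the oviduct glycoprotein, made most of the difference, with 271794 in cow 856, 325158 in cow 97 and between 287 and 1950 elsewhere. The 10 ciliated epithelium markers, of which PIFO was at 0 throughout, summed to 39332 to 49905 in LF/LCL cows, 46409 in cow 489215, 73210 in cow 856 and 79329 in cow 97. By these sums cows 856 and 97 were below the LF/LCL cows in smooth muscle markers and above them in both epithelial lists. Cow 489215 was also above the LF/LCL cows in the sum of the secretory and general epithelium list. Its EPCAM (20313), KRT8 (13358), KRT7 (5507) and KRT19 (12551) were the highest of the 6 cows. The rest of that list went otherwise in this cow. PAX8 (469) was the lowest of the 6, KRT18 (6791) was under that of cow 97 (8599), and OVGP1 (730) lay within the LF/LCL range. The ciliated list was not uniform in cow 489215 either. Its DNAH5 (626), DNAH9 (1697), FOXJ1 (2609) and TEKT1 (1341) were the lowest of the 6 cows. Its TPPP3, DNAI1 and CCDC39 were above every LF/LCL cow, and its RSPH1 and CAPS lay within the LF/LCL range. Mesothelium markers (6 of 6) summed to 2470 to 3347 in LF/LCL cows and to 3512, 26271 and 26912 in cows 489215, 856 and 97, mostly through MSLN and WT1, while LRRN4 of this list was at 175 to 412 in LF/LCL cows and at 3.80 to 16.3 in SF/SCL cows. Nerve and Schwann cell markers (7 of 7) summed to 4244 to 6628 in LF/LCL cows and to 10234, 33201 and 29794 in the same 3 cows, with S100B the main part. Fibroblast markers (5 of 5) were higher in all LF/LCL cows, at 287776 to 356045 against 146894 to 204688. Endothelial (5 of 6, without PECAM1), leukocyte (6 of 6) and striated muscle markers overlapped between the groups, with ranges of 9657 to 15231, 1775 to 3301 and 1240 to 5807 over the 6 cows. The endothelial overlap came from cow 489215 (14584) alone. Cows 856 (9657) and 97 (10425) were below every LF/LCL cow (11707 to 15231). The erythrocyte markers with a row, HBB, HBA and ALAS2, reached a sum of at most 6.66. The part of these cell types in the differences below was not tested, and in tissue of this kind fewer cells of a type and less RNA per cell cannot be told apart.

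**Figure D1:**
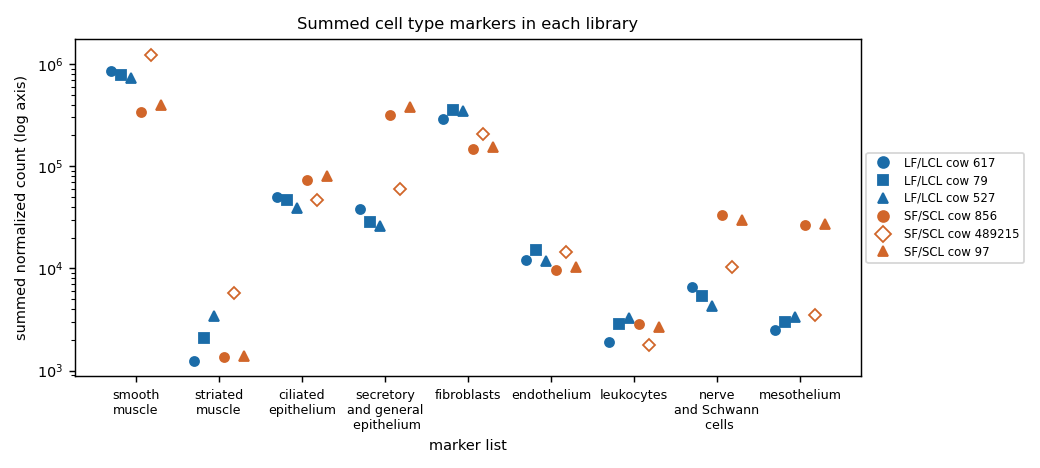
Summed normalized count of each cell type marker list (log axis) in each of the 6 libraries, with LF/LCL cows in blue, SF/SCL cows in orange and cow 489215 as an open diamond. Cows 856 and 97 sit below the LF/LCL cows for smooth muscle and fibroblasts and far above them for secretory epithelium, nerve and mesothelium, while cow 489215 is the highest for smooth muscle.

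Of the 67 genes, 18 had a mean normalized count of at least 1000 over the 6 libraries, 24 lay between 100 and 1000, 12 between 5 and 100, and 13 at or under 5. Of these, 50 entered the test, which required a mean above 5 and above the standard deviation (SD). The untested genes were 17. CACNA1F, CACNA1I, CACNA2D4, CACNB4, CACNG1, CACNG2, CACNG3, CACNG6, CASQ2, TRPC7, TRPM5, TRPV3 and TRPV5 had a mean of at most 5, and CACNG2 had no read in any library, which allows up to 3 reads in each for counting error alone. ATP2B2, CACNG4, CACNG7 and TRPM8 had a mean above 5 but an SD above their mean.

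None of the 50 calcium genes tested, and none of all 15387 genes (0.00%), differed between SF/SCL and LF/LCL in limma at a Benjamini-Hochberg adjusted p under 0.05. The smallest adjusted p was 0.367 among the calcium genes and 0.351 among all genes. At an unadjusted p under 0.05, limma took 9 of the 50 (18%), beside 8.66% of all genes. These were CACNA1C, CACNA1G, CACNA2D1, ITPR1, RYR2 and ATP2B3, with higher means in LF/LCL (6 genes, beside 4.48% of all genes), and CACNB3, TRPM1 and TRPV6, with higher means in SF/SCL (3 genes, beside 4.19%). The edgeR quasi-likelihood test gave 0 genes at an adjusted p under 0.05, among the 50 as among all (0.00%), and 11 of the 50 at an unadjusted p under 0.05 (8.49% of all genes). DESeq2 took 409 genes at an adjusted p under 0.05 (2.66%), among them 4 calcium genes, all higher in LF/LCL (1.34% of all genes), namely CACNA1G, ITPR1, RYR2 and ATP2B3, and it had 15 calcium genes at an unadjusted p under 0.05 (11.5% of all genes).

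The count of 9 depended on single cows. It was 3 of 51 tested without cow 79 and 5 of 52 without cow 527, for which no share of all genes is given here. Without cow 489215 it was 29 of 53, beside 33.9% of all genes. In the fit of the 5 remaining cows, limma took 2827 of 15495 genes (18.2%) at an adjusted p under 0.05 and 21 of the 53 calcium genes then tested (39.6%). Of these, 11 were higher in LF/LCL (7.92% of all genes) and 10 higher in SF/SCL (10.3%). The median residual SD over all genes tested in limma was 0.435 with all cows and 0.184 without cow 489215. Small p-values in the second fit follow in part from leaving that cow out.

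For 14 of the 50 genes (28.0%) the values of the 3 LF/LCL cows and the 3 SF/SCL cows did not overlap, beside 18.1% of all genes. LF/LCL cows were higher in 11 of them (8.60% of all genes), CACNA1C, CACNA1G, CACNA1H, CACNA2D1, ITPR1, RYR1, RYR2, ATP2A2, ATP2B3, ATP2B4 and TRPC6. SF/SCL cows were higher in 3 (9.51% of all genes), CACNA2D3, CACNB3 and TRPM1. Without cow 489215, 34 of 53 genes (64.2%) did not overlap, beside 52.0% of all genes, with 20 higher in LF/LCL (24.9% of all genes) and 14 higher in SF/SCL (27.1%). The median log2 fold change of the 50 genes, SF/SCL over LF/LCL, was -0.29, with 36 below 0 (72.0%), beside a median of -0.02 and 51.4% below 0 over all genes. The median was -0.15 in edgeR and -0.12 in DESeq2. In limma without cow 489215 it was 0.03, with 24 of 53 below 0 (45.3%, beside 50.1% of all genes). Cow 489215 had the lowest value of the 6 cows in 24 of the 50 genes (35.7% of all genes) and the highest in 8 (36.7% of all genes).

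**Figure D2:**
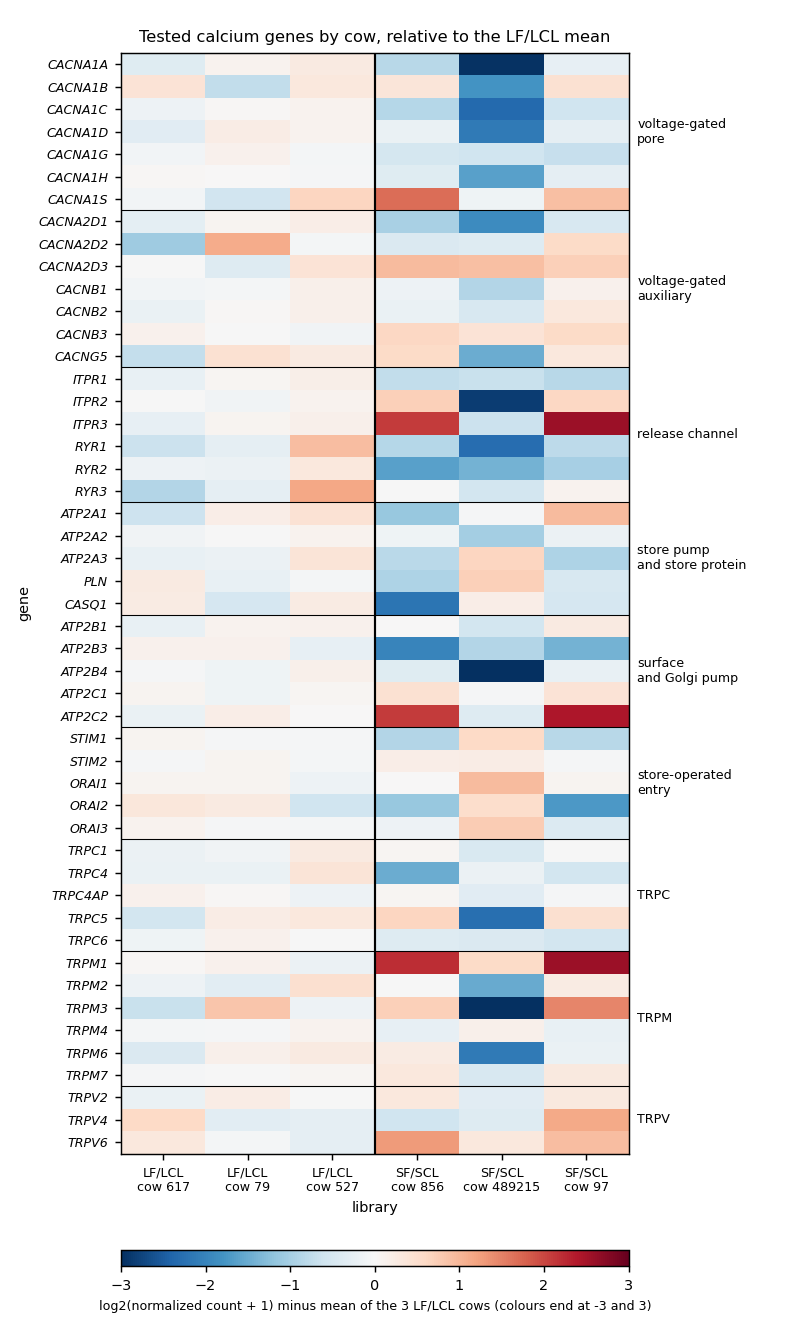
Log2(normalized count + 1) of 49 tested calcium genes in each library (columns) minus the mean of the 3 LF/LCL cows, grouped by role, with blue below and red above that mean. ITPR1, RYR2, CACNA1G and ATP2B3 are lower in all 3 SF/SCL cows, ITPR3, ATP2C2 and TRPM1 are high in cows 856 and 97, and cow 489215 has the deepest blue in CACNA1A, ITPR2, ATP2B4 and TRPM3.

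The pore subunits of voltage-gated channels (7 tested of 9) mostly had lower means in SF/SCL, with a median log2 fold change of -0.76 and 6 of 7 below 0, and of -0.32 with 5 of 7 below 0 without cow 489215. CACNA1C, the L-type pore that carries most depolarization-driven entry in smooth muscle, was at 2484, 2842 and 2996 normalized counts in LF/LCL cows 617, 79 and 527 and at 1536, 551 and 1835 in SF/SCL cows 856, 489215 and 97. The groups did not overlap, and cow 489215 was the lowest by far. For CACNA1C the log2 fold change was -1.25 ± 0.45 (SE, in limma, unadjusted p 0.0297, adjusted p 0.503), and without cow 489215 it was -0.72 ± 0.12 with an adjusted p of 0.0136. CACNA1G, a T-type pore that opens near the resting potential, was at 1490.4, 1736 and 1530.1 in the LF/LCL cows and at 1091, 1039.8 and 981 in the SF/SCL cows, in the same order of cows as above and in all that follows. Here all 3 SF/SCL cows were alike and below every LF/LCL cow, with a mean of 1037 ± 55 against 1586 ± 132 (SD, n = 3), a 1.53-fold difference. The log2 fold change of CACNA1G was -0.61 ± 0.17 in limma (adjusted p 0.41), -0.61 in DESeq2 (adjusted p 0.0261) and -0.61 ± 0.11 in limma without cow 489215 (adjusted p 0.0163).

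CACNA1H, the second T-type pore, was at 9233, 8979.8 and 8696 in LF/LCL cows and at 6956, 2876 and 7384 in SF/SCL cows. It too did not overlap, but cow 489215 was far below cows 856 and 97. Its log2 fold change was -0.76 ± 0.38 with all cows (limma, adjusted p 0.649) and -0.32 ± 0.08 without cow 489215 (adjusted p 0.0417). The other 4 tested pores overlapped between the groups. Among them CACNA1A, CACNA1B and CACNA1D, the pores of P/Q-type, N-type and another L-type channel, were lowest in cow 489215, at 38.6, 6.66 and 113 against ranges of 172 to 367, 15 to 35.8 and 392 to 587 in the other 5 cows. CACNA1S, the L-type pore of skeletal muscle, had a low level, from 27.2 to 134, and CACNA1F and CACNA1I had at most 3 reads in any library.

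The auxiliary subunits, which set the trafficking and gating of the pores, had 7 tested genes of 15 and no common direction. CACNA2D1, an alpha2delta subunit that raises the number of channels at the surface, was at 574, 742 and 805 in LF/LCL cows and 355, 188 and 504 in SF/SCL cows. The cows were arranged as for CACNA1C, with no overlap and the lowest value in cow 489215. Its log2 fold change was -1.11 ± 0.39 (limma, unadjusted p 0.0271, adjusted p 0.496) and -0.73 ± 0.21 without cow 489215 (adjusted p 0.062). CACNB3, a beta subunit, was at 1510.3, 1383 and 1282 in LF/LCL cows and 2134, 1849 and 2069 in SF/SCL cows. All 3 SF/SCL cows were above every LF/LCL cow, by 1.45-fold, with means of 2018 ± 149 and 1392 ± 114 (SD, n = 3). For CACNB3 the log2 fold change was 0.54 ± 0.17 (limma, unadjusted p 0.0158, adjusted p 0.444) and 0.60 ± 0.10 without cow 489215 (adjusted p 0.0136).

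CACNA2D3, another alpha2delta gene, was at 27.2, 20.6 and 36.9 in LF/LCL cows and 53.9, 51.9 and 45.5 in SF/SCL cows. The groups did not overlap, but the level was low and the log2 fold change of 0.85 ± 0.38 had an adjusted p of 0.611 (limma), or 0.187 without cow 489215. CACNB1 and CACNB2, beta subunits like CACNB3, had log2 fold changes of -0.30 ± 0.34 and -0.12 ± 0.29, which became -0.01 ± 0.20 and 0.05 ± 0.21 without cow 489215. CACNA2D2 and CACNG5 were tested at means under 10. CACNG4, a gamma subunit singled out after its values were seen, was at 17.8, 5.63 and 7.03 in LF/LCL cows and 76.7, 7.99 and 54.2 in SF/SCL cows. Only cows 856 and 97 were high, and its SD kept it out of the test of 6 cows, while without cow 489215 its log2 fold change was 2.71 ± 0.57 (limma, adjusted p 0.0238). CACNG7 was at 53.5 in cow 79 and at 1.52 to 8.37 in the other 5 cows, and CACNG6 had 6 reads in cow 489215 and at most 2 in any other.

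**Figure D3:**
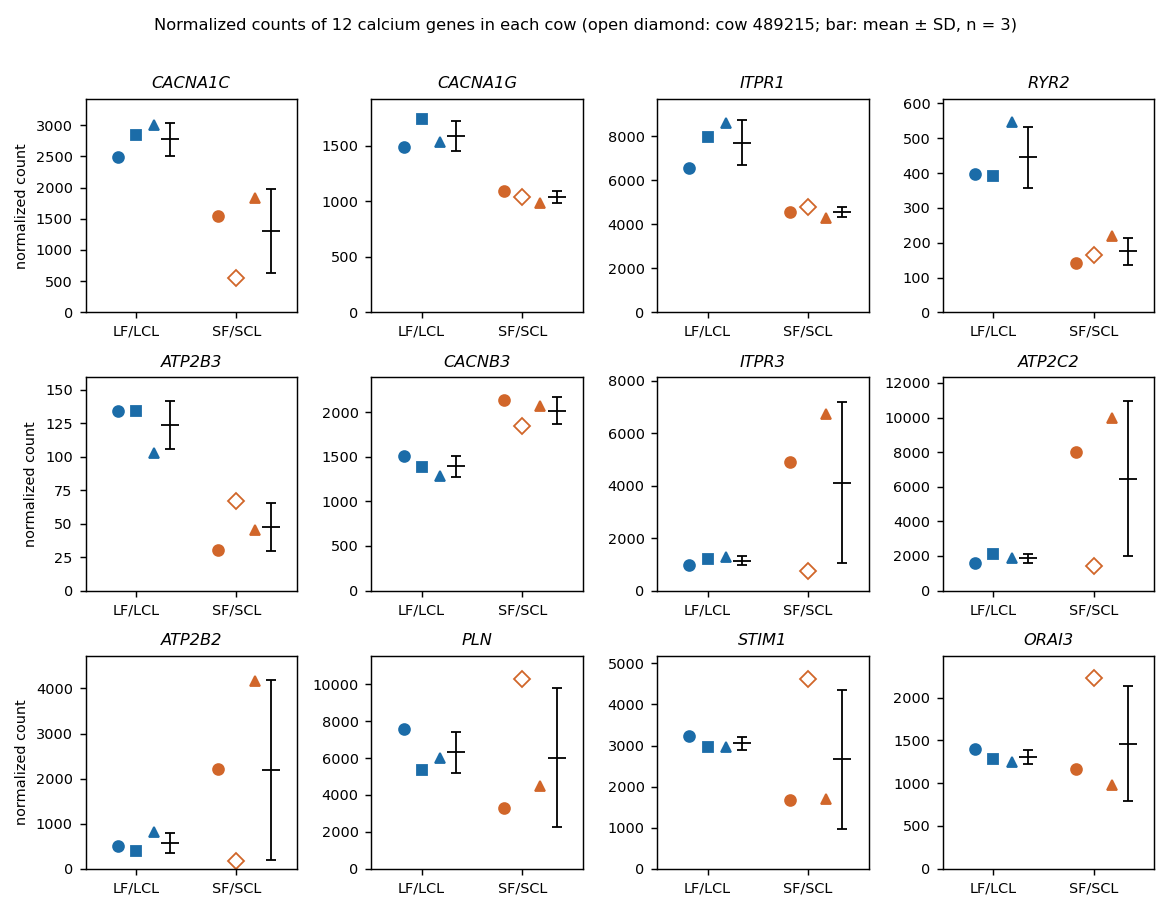
Normalized count of 12 calcium genes in each cow (vertical axis, starting at 0), by group, with the mean and SD of the 3 cows beside the points and cow 489215 as an open diamond. CACNA1C, CACNA1G, ITPR1, RYR2 and ATP2B3 are lower in all SF/SCL cows and CACNB3 is higher, ITPR3, ATP2C2 and ATP2B2 are high in cows 856 and 97 alone, and PLN, STIM1 and ORAI3 are highest in cow 489215.

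The release channels let stored calcium into the cytoplasm, and the 3 inositol trisphosphate receptors differed from one another in how the cows were arranged. ITPR1, the inositol trisphosphate receptor of type 1, was at 6566, 7951 and 8590.2 in LF/LCL cows and 4565, 4784 and 4305 in SF/SCL cows. The 3 SF/SCL cows were close to one another and below every LF/LCL cow, with means of 4551 ± 239.7 and 7702 ± 1035 (SD, n = 3), a 1.69-fold difference. Its log2 fold change was -0.75 ± 0.18 in limma (unadjusted p 0.0042, adjusted p 0.381) and -0.76 in DESeq2 (adjusted p 0.00952). Without cow 489215 the limma value was -0.79 ± 0.13 (adjusted p 0.0115), so this difference was as large without that cow.

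ITPR3, the type 3 receptor, was at 956, 1207 and 1273 in LF/LCL cows and 4880.3, 728 and 6741 in SF/SCL cows. Far above all the others stood cows 856 and 97, by 5.07-fold over the LF/LCL mean, and cow 489215 was the lowest of the 6. The log2 fold change was 1.34 ± 0.80 with all cows (limma, adjusted p 0.736) and 2.33 ± 0.18 without cow 489215 (adjusted p 0.00216). ITPR2, the type 2 receptor, was at 3372, 3153 and 3681 in LF/LCL cows and 5613, 469 and 5234 in SF/SCL cows. It was moderately high in cows 856 and 97 and 8.98-fold lower in cow 489215 than the mean of the other 5 cows. For ITPR2 the log2 fold change was -0.50 ± 0.93 with all cows (limma, adjusted p 0.915), had the opposite sign in edgeR (0.13) and DESeq2 (0.15), and was 0.67 ± 0.10 without cow 489215 (adjusted p 0.00842).

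The ratio of ITPR1 to ITPR3 within a library does not depend on the size factor, and since gene length is not corrected it is read between cows only. It was 6.87, 6.59 and 6.75 in LF/LCL cows, and 0.935, 6.57 and 0.639 in SF/SCL cows 856, 489215 and 97. The LF/LCL cows and cow 489215 were nearly alike and cows 856 and 97 stood far below them. The log2 ratio was 2.75 ± 0.03 in LF/LCL and 0.657 ± 1.804 in SF/SCL (SD, n = 3), a difference of -2.09 with a two-sided exact permutation p of 0.1, which is the smallest that 3 against 3 cows can give, and 0.15 after Benjamini-Hochberg adjustment over the 3 ratios tested. Without cow 489215 the difference was -3.12.

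RYR2, the ryanodine receptor best known from the heart and also present in smooth muscle, was at 399, 391 and 546 in LF/LCL cows and 141, 165 and 219 in SF/SCL cows. Every SF/SCL cow was below every LF/LCL cow, with means of 175 ± 39.8 and 446 ± 87.4 (SD, n = 3), a 2.54-fold difference. It had the smallest p of the calcium genes, with a log2 fold change of -1.35 ± 0.29 (limma, unadjusted p 0.00248, adjusted p 0.367), an adjusted p of 0.00151 in DESeq2, and -1.32 ± 0.25 without cow 489215 (limma, adjusted p 0.0186). RYR1, the skeletal muscle form, was at 296, 380.1 and 875 in LF/LCL cows and 257, 94.5 and 266 in SF/SCL cows. The groups did not overlap, but the LF/LCL cows were spread widely, and the log2 fold change of -1.31 ± 0.57 had an adjusted p of 0.606 (limma), or 0.238 without cow 489215. RYR3 overlapped, with 320.3 to 1314 over the 6 cows and its highest value in LF/LCL cow 527. Among the 6 release channels the median log2 fold change was -0.63, or -0.37 without cow 489215, and 3 did not overlap, all higher in LF/LCL (8.60% of all genes). Without that cow 5 of the 6 did not overlap (52.0% of all genes), 3 higher in LF/LCL, and ITPR2 and ITPR3 higher in SF/SCL.

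**Figure D4:**
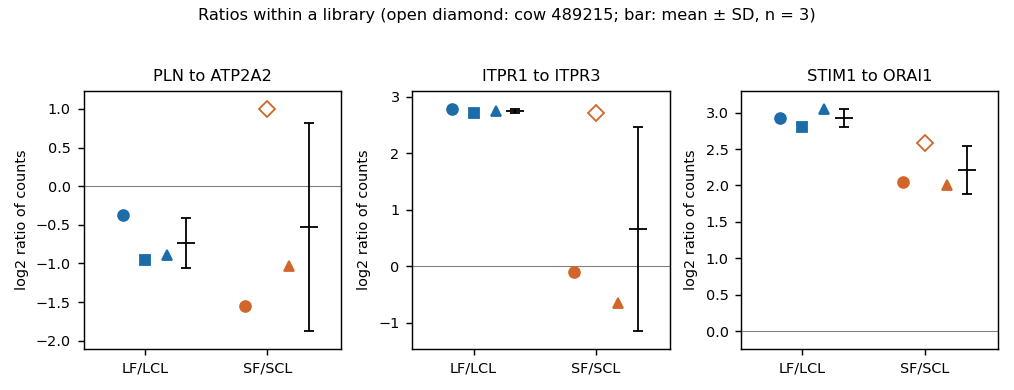
Log2 ratio of 2 genes' counts within each library for PLN to ATP2A2, ITPR1 to ITPR3 and STIM1 to ORAI1, by group, with the mean and SD of the 3 cows and cow 489215 as an open diamond. The ITPR1 to ITPR3 ratio of cow 489215 lies next to the LF/LCL cows and far from cows 856 and 97, and its PLN to ATP2A2 ratio is the highest of the 6.

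The store pumps refill the endoplasmic reticulum after release. ATP2A2, the pump present in most tissues including smooth muscle, was at 9755, 10412 and 11144 in LF/LCL cows and 9593, 5160.4 and 9193 in SF/SCL cows. The groups did not overlap, but the gap between them was small next to the low value of cow 489215. The log2 fold change was -0.44 ± 0.28 (limma, adjusted p 0.753) and -0.15 ± 0.09 without cow 489215 (adjusted p 0.303). PLN, phospholamban, the small protein that restrains ATP2A2 until it is phosphorylated, was at 7555, 5360.5 and 6016 in LF/LCL cows and 3281, 10299 and 4486 in SF/SCL cows. Cows 856 and 97 were the lowest of the 6 and cow 489215 the highest. For PLN the log2 fold change was -0.23 ± 0.43 with all cows (limma, adjusted p 0.916) and -0.70 ± 0.19 without cow 489215 (adjusted p 0.0478). The smooth muscle marker sum, given above, was likewise lowest in cows 856 and 97 and highest in cow 489215, and its part in the PLN values was not tested. The list was not uniform in cow 489215. Of its 8 markers, 5 were the highest of the 6 cows there, MYH11 and LMOD1 were not, and SYNPO2 (9453) was the lowest.

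The ratio of PLN to ATP2A2 was 0.774, 0.515 and 0.54 in LF/LCL cows and 0.342, 2.00 and 0.488 in SF/SCL cows 856, 489215 and 97. In cow 489215 PLN had its highest value and ATP2A2 its lowest. The ratio of cow 97 was just under the LF/LCL range and that of cow 856 further below it. The log2 ratio differed by 0.21 between the groups (two-sided exact permutation p 1.0, adjusted p 1.0 over the 3 ratios) and by -0.55 without cow 489215. ATP2A3, a store pump of epithelial and blood cells singled out after its values were seen, was at 492, 506 and 744 in LF/LCL cows and 327, 885 and 301 in SF/SCL cows, the same arrangement as PLN. Its log2 fold change was -0.36 ± 0.46 with all cows (limma, adjusted p 0.89) and -0.86 ± 0.21 without cow 489215 (adjusted p 0.037). ATP2A1, the skeletal muscle pump, was low, from 19 to 83.5.

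CASQ1 and CASQ2 encode calsequestrins, which bind calcium inside the store of muscle. CASQ1 was at 479, 285 and 478 in LF/LCL cows and 87.4, 462 and 282 in SF/SCL cows. Cow 856 was the lowest, the groups overlapped, and the log2 fold change was -0.84 ± 0.62 (limma, adjusted p 0.803) and -1.35 ± 0.50 without cow 489215 (adjusted p 0.112). CASQ2, the cardiac form, had 7, 2 and 2 reads in LF/LCL cows and 4, 1 and 1 reads in SF/SCL cows, and was not tested.

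The pumps of the cell surface and the Golgi showed 3 different arrangements. ATP2B3, a surface pump best known from neurons, was at 134, 134 and 103 in LF/LCL cows and 30.4, 66.6 and 45.5 in SF/SCL cows. All SF/SCL cows were below all LF/LCL cows, with means of 47.5 ± 18.2 and 124 ± 18.1 (SD, n = 3), a 2.6-fold difference. The log2 fold change was -1.42 ± 0.39 (limma, unadjusted p 0.0096, adjusted p 0.411), with an adjusted p of 0.0246 in DESeq2, and -1.70 ± 0.31 without cow 489215 (limma, adjusted p 0.0159). ATP2B4, a surface pump of smooth muscle and many other cells, was at 3843, 3569.6 and 4386 in LF/LCL cows and 3043, 494 and 3373 in SF/SCL cows. Cow 489215 was 7.38-fold below the mean of the other 5 cows, and the log2 fold change moved from -1.19 ± 0.72 (limma, adjusted p 0.742) to -0.29 ± 0.12 without it (adjusted p 0.132). ATP2B1, the widely expressed surface pump, was at 4604, 5819 and 5905 in LF/LCL cows and 5448, 3709 and 6552 in SF/SCL cows. These values overlapped, and the log2 fold change of -0.09 ± 0.25 (limma, adjusted p 0.951) was 0.14 ± 0.14 without cow 489215 (adjusted p 0.531).

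ATP2C2, the Golgi-type pump found mainly in secretory epithelia, was at 1611, 2133 and 1882 in LF/LCL cows and 8001, 1429 and 9956 in SF/SCL cows. As with ITPR3, cows 856 and 97 were far above all the others, by 4.79-fold over the LF/LCL mean, and cow 489215 was the lowest of the 6. Its log2 fold change was 1.38 ± 0.71 with all cows (limma, adjusted p 0.673) and 2.26 ± 0.15 without cow 489215 (adjusted p 0.00188), the smallest adjusted p of the calcium genes in that fit. ATP2B2, a surface pump known from hair cells, neurons and mammary epithelium, was at 512, 386 and 809 in LF/LCL cows and 2215, 173 and 4163 in SF/SCL cows. It had the same arrangement, its SD kept it out of the test of 6 cows, and without cow 489215 its log2 fold change was 2.48 ± 0.37 (limma, adjusted p 0.00862). ATP2C1, the Golgi pump of most cells, was at 5709.5, 4986 and 5606 in LF/LCL cows and 7432, 5297 and 7183 in SF/SCL cows. It was higher in cows 856 and 97 by a smaller step, 1.34-fold, with a log2 fold change of 0.28 ± 0.20 (limma, adjusted p 0.792) and 0.43 ± 0.09 without cow 489215 (adjusted p 0.0271). The summed secretory and general epithelium markers were high in the same pair of cows, as given above, but the list was not uniform. OVGP1 and PAX8 were high in cows 856 and 97 alone, and KRT18 was highest in cow 97. EPCAM, KRT8, KRT7 and KRT19 were highest in cow 489215. The part of the markers in the pump values was not tested.

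Store-operated entry couples the emptying of the store to entry from outside, with STIM1 and STIM2 sensing calcium in the store and ORAI1, ORAI2 and ORAI3 forming the channel. Cow 489215 held the highest value of the 6 cows in all 5 of these genes, in STIM2 only just. STIM1 was at 3235, 2954 and 2962 in LF/LCL cows and 1666, 4622 and 1702 in SF/SCL cows. Below the LF/LCL cows, and alike, were cows 856 and 97, by 1.81-fold on average, and cow 489215 was above them. The log2 fold change was -0.37 ± 0.41 with all cows (limma, adjusted p 0.87) and -0.86 ± 0.09 without cow 489215 (adjusted p 0.00324). ORAI2 was at 542, 519 and 283 in LF/LCL cows and 194, 622 and 130.1 in SF/SCL cows. It had the arrangement of STIM1, with log2 fold changes of -0.78 ± 0.61 (limma, adjusted p 0.822) and -1.43 ± 0.34 without cow 489215 (adjusted p 0.0331).

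ORAI3 was at 1401, 1282 and 1246 in LF/LCL cows and 1169.8, 2233 and 981 in SF/SCL cows. Cows 856 and 97 were again the lowest, and the log2 fold change was 0.06 ± 0.32 (limma, adjusted p 0.968) with all cows and -0.29 ± 0.12 without cow 489215 (adjusted p 0.145). ORAI1 was at 424, 424 and 359 in LF/LCL cows and 405, 771 and 424 in SF/SCL cows, and STIM2 at 621, 669 and 612 and at 727, 734 and 622. Apart from the high ORAI1 of cow 489215, neither gene separated the cows. Their log2 fold changes were 0.34 ± 0.31 and 0.13 ± 0.19 with all cows (limma, adjusted p 0.843 and 0.899), and without cow 489215 they were 0.05 ± 0.15 and 0.09 ± 0.13 (adjusted p 0.857 and 0.676). The ratio of STIM1 to ORAI1 was 7.63, 6.96 and 8.24 in LF/LCL cows and 4.11, 6.00 and 4.02 in SF/SCL cows 856, 489215 and 97. All SF/SCL cows were below all LF/LCL cows in this ratio, cow 489215 by the least. The log2 ratio was 2.93 ± 0.12 in LF/LCL and 2.21 ± 0.32 in SF/SCL (SD, n = 3), a difference of -0.71 (two-sided exact permutation p 0.1, the smallest possible, and 0.15 adjusted over the 3 ratios), or -0.90 without cow 489215.

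**Figure D5:**
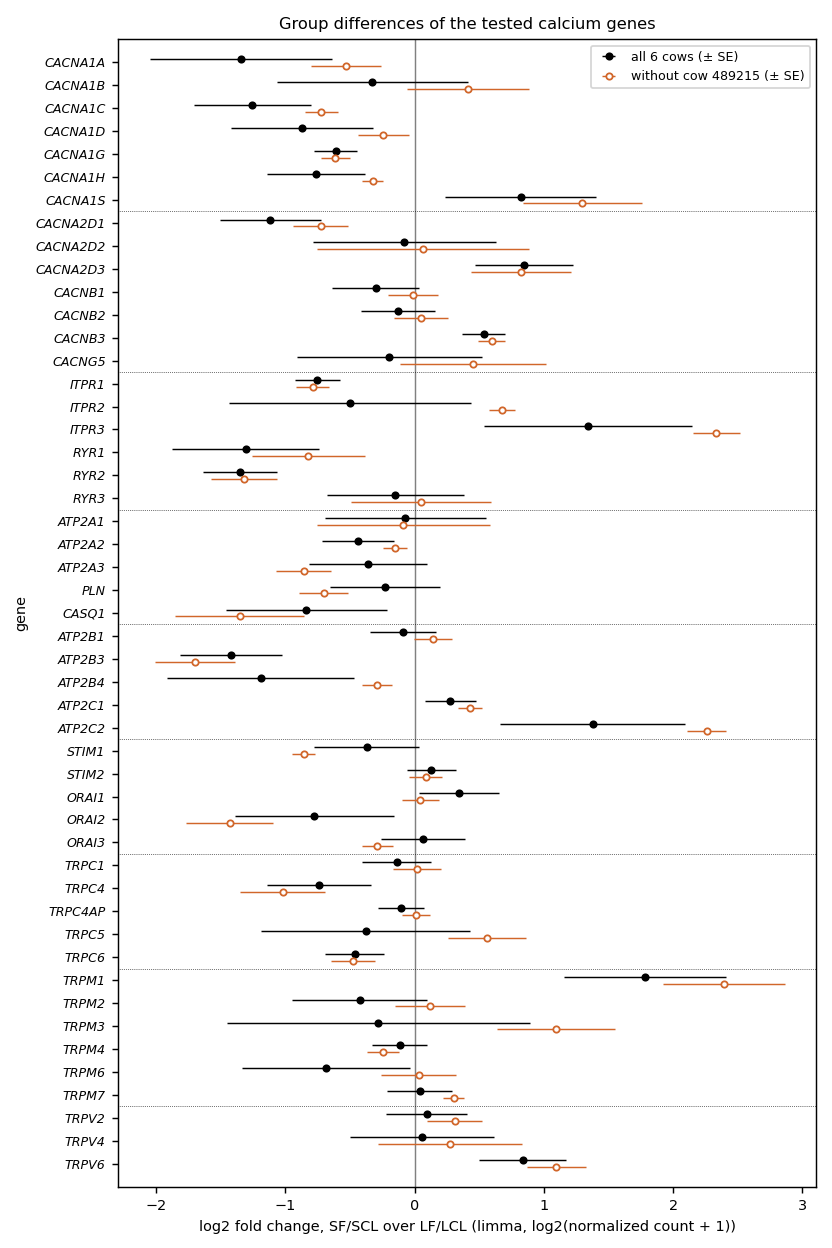
Log2 fold change, SF/SCL over LF/LCL, of 49 tested calcium genes from limma with all 6 cows (filled) and without cow 489215 (open), with bars for 1 SE. ITPR1, RYR2, CACNA1G and CACNB3 keep their place, ITPR2, ITPR3 and ATP2C2 move to the right without that cow, and PLN, STIM1 and ORAI2 move to the left.

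The TRPC channels open downstream of phospholipase C. Of the 7 symbols here, 6 were tested, among them TRPC4AP, which is not itself a channel. All 6 had log2 fold changes below 0 in limma with all cows, while TRPC5 was at 0.03 in DESeq2 and 3 of the 6 were below 0 without cow 489215. TRPC6 was at 278, 333 and 304 in LF/LCL cows and 232, 225 and 206 in SF/SCL cows. The groups did not overlap and cow 489215 lay between the other SF/SCL cows, with a log2 fold change of -0.46 ± 0.23 (limma, adjusted p 0.65) and -0.48 ± 0.17 without that cow (adjusted p 0.103). TRPC4AP was at 3336, 3154 and 2749 in LF/LCL cows and 3192, 2442 and 2988 in SF/SCL cows, a spread that covered both groups, with a log2 fold change of -0.10 ± 0.18 (limma, adjusted p 0.912), or 0.01 ± 0.11 without cow 489215. TRPC1, TRPC4 and TRPC5 overlapped too, and TRPC7 had at most 3 reads in a library.

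Of the TRPM and TRPV channels, 6 of 8 and 3 of 5 were tested. TRPM7, a widely expressed channel with a kinase domain that also passes magnesium, was at 2486, 2524 and 2650.0 in LF/LCL cows and 3165, 1820.0 and 3135 in SF/SCL cows. Cows 856 and 97 were alike and the highest, cow 489215 was the lowest, and the log2 fold change was 0.04 ± 0.25 with all cows (limma, adjusted p 0.976) and 0.30 ± 0.08 without cow 489215 (adjusted p 0.0492). TRPM1, known from retina and melanocytes, had 5, 6 and 5 reads in LF/LCL cows and 36, 6 and 32 reads in SF/SCL cows, which gave 5.23, 5.63, 4.39, 27.3, 7.99 and 34.7 normalized counts. The groups did not overlap, but cow 489215 was only just above the LF/LCL cows, and a step of this size is not detectable at so few reads. For TRPM1 the log2 fold change was 1.78 ± 0.63 (limma, unadjusted p 0.0269, adjusted p 0.495), or 2.39 ± 0.47 without cow 489215 (adjusted p 0.0199).

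TRPV6, the calcium-selective channel of absorptive epithelia and placenta, was at 253, 194 and 168 in LF/LCL cows and 489.9, 252 and 384 in SF/SCL cows. The highest were cows 856 and 97, and cow 489215 lay just under LF/LCL cow 617. The log2 fold change was 0.84 ± 0.33 (limma, unadjusted p 0.0435, adjusted p 0.556) and 1.10 ± 0.23 without cow 489215 (adjusted p 0.0238). Its nearest relative TRPV5 had 14 reads in cow 79 and at most 2 in any other library. TRPM3 ranged from 25.3 in cow 489215 to 599 in cow 97, the widest range of the tested TRP channels in proportion. TRPM8, the cold-sensing channel, was at 121 in LF/LCL cow 527 and at 1.33 in cow 489215, and its SD kept it out of the test. TRPM2, TRPM4, TRPM6, TRPV2 and TRPV4 overlapped between the groups, with adjusted p from 0.856 to 0.983 in limma, or from 0.226 to 0.951 without cow 489215.

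The wider calcium pathway was read from a list of 97 symbols, 88 of them in the table and 85 tested, which hold exchangers, mitochondrial uptake, store and junction proteins, calmodulin with its kinases, calcineurin with NFAT, phospholipase C and calcium-activated channels. None passed an adjusted p under 0.05 in limma or edgeR and 5 did in DESeq2 (2.66% of all genes), while 14 had an unadjusted p under 0.05 in limma (16.5%, beside 8.66% of all genes), 13 in edgeR (8.49% of all genes) and 18 in DESeq2 (11.5%). Of the 14, 12 were higher in LF/LCL (4.48% of all genes) and 2 in SF/SCL (4.19%). The median log2 fold change was -0.33 with all cows and -0.32 without cow 489215, with 63 of 85 (51.4% of all genes) and 59 of 85 (50.1%) below 0, and 22 of 85 (25.9%) passed in limma without that cow, beside 18.2% of all genes. By group, the median with all cows was -0.81 for the exchangers (4 of 7 at an unadjusted p under 0.05), -0.50 for Gq and phospholipase C (3 of 11), -0.45 for calmodulin and its kinases (2 of 9), -0.38 for the calcium-activated channels (1 of 7), -0.31 for other calcium-permeable channels (0 of 14), -0.24 for calcineurin and NFAT (0 of 11), -0.14 for store lumen and junctions (4 of 19) and -0.01 for mitochondrial uptake (0 of 7). Without cow 489215 the medians were -0.47 for the exchangers, 0.0033 for Gq and phospholipase C, where 5 of 11 were then below 0 in place of 10, -0.38 for calmodulin and its kinases, -0.46 for the calcium-activated channels, -0.35 for other calcium-permeable channels, -0.15 for calcineurin and NFAT, -0.32 for store lumen and junctions and -0.34 for mitochondrial uptake.

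MYLK, the kinase that turns the calcium signal into contraction of smooth muscle, was at 78860.5, 74149 and 79842 in LF/LCL cows and 36320.1, 47882 and 37761 in SF/SCL cows. No SF/SCL cow reached the LF/LCL range, and the log2 fold change was -0.94 ± 0.22 (limma, adjusted p 0.381), or -1.07 ± 0.09 without cow 489215 (adjusted p 0.00234). KCNMA1, the large-conductance potassium channel that calcium opens, was at 6393, 5921 and 6745 in LF/LCL cows and 3383, 2488 and 3566 in SF/SCL cows. It did not overlap either, with a log2 fold change of -1.03 ± 0.20 (limma, adjusted p 0.367) and -0.87 ± 0.09 without cow 489215 (adjusted p 0.00352). A further 9 genes of the list that were higher in LF/LCL at an unadjusted p under 0.05 had log2 fold changes of -1.03 for SLC24A3, -2.43 for SLC24A2, -1.82 for SLC8A3 and -0.81 for SLC8A1, which are sodium-calcium exchangers, -1.35 for PLCB1 and -0.61 for PLCB4, which make inositol trisphosphate, -1.06 for JPH2, which belongs to the junction of store and surface in muscle, -1.16 for the kinase gene CAMK2B and -0.49 for CALU, a calcium-binding protein of the store. The 2 that were higher in SF/SCL were TMEM66 at 0.63, a negative regulator of store-operated entry, and PLCD3 at 0.81, another phospholipase C. Without cow 489215 these 11 genes kept their signs, with log2 fold changes of -1.05 for SLC24A3, -1.71 for SLC24A2, -1.18 for SLC8A3, -0.47 for SLC8A1, -1.10 for PLCB1, -0.47 for PLCB4, -0.78 for JPH2, -0.81 for CAMK2B, -0.37 for CALU, 0.50 for TMEM66 and 0.96 for PLCD3. TRDN, a partner of the ryanodine receptors and also among those higher in LF/LCL, had 9, 8 and 12 reads in LF/LCL cows and 1 read in each SF/SCL cow, too few for a fold change.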

How the data were processed

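RNA-seq of isthmus tissue from 6 cows, 3 LF/LCL and 3 SF/SCL, was read from 1 deposited table, and samples were grouped by their titles. Per the labels and the methods of the study, polyadenylated RNA was made into TruSeq libraries, reads were filtered with seqyClean and aligned to the masked bovine genome UMD3.1 with TopHat2 2.0.8 and Bowtie2 2.1.0, and uniquely mapped reads were counted per Ensembl gene with HTSeq 0.5.4p2 (versions from the submitters' processing notes). Whether counting used the strand is not given in the sources used here. The deposited signal values are such counts after the authors had scaled every library by its own DESeq size factor. Every value was a whole multiple of 1 read of its library, so that 100% of 147696 values gave whole reads (tolerance 0.002), with totals of 23899117 to 34193164. The floor of 3 reads covers counting error only. Each SE comes from the limma fit across cows, and each SD from the 3 cows of a group.

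Values were tested as log2(value + 1) in limma 3.58.1 (lmFit, eBayes with trend and robust, R 4.3.3), for genes whose mean exceeded both 5 and their SD, with Benjamini-Hochberg adjustment over all 15387 genes and a threshold of 0.05. A fold change on this scale understates that of low genes. No covariate was used, since no batch is named. Alternatives were edgeR 4.0.16 (quasi-likelihood) and DESeq2 1.42.0 on the recovered reads, other normalizations, pseudocounts and filters, and leaving out each cow. The 3 ratios were tested by exact permutation over the 10 divisions of the cows. The scripts were tested on simulated data.

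The genes, lists and tests were chosen with earlier results of these data known. Values in every cow were given for calcium genes with a mean of at least 1000, with groups that did not overlap, or with an unadjusted p under 0.05, and for the store proteins, STIM and ORAI genes and genes the study lists for the isthmus. CACNG4 and ATP2A3 were added after their values were seen, as were fits without cow 489215 in edgeR. From the pathway list, genes with an unadjusted p under 0.05 were named. The values of 1 tested gene of the 67 are not reported here. Sequences and genome positions were not used here, since no genome of this build was at hand.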

Additional observations from a re-analysis of the deposited data

How the results depend on the processing

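No paired analysis was possible because the cows of the groups share no number or other pairing. The count of genes at an adjusted p under 0.05 was 0 in limma and in edgeR under both normalizations, under TMM rescaling, pseudocounts of 0.5 and 5 and both other filters. It was 409 in DESeq2, it ranged from 0 to 2827 on leaving out a cow, where only the omission of cow 489215 gave any, and it was 2805 in edgeR without cow 489215, a fit added after the data were seen. The count of calcium genes at an unadjusted p under 0.05 (9) was 15 in DESeq2 (11.5% of all genes) and 27 in edgeR without cow 489215. On leaving out a cow it ranged in limma from 3 (without cow 79) to 29 (without cow 489215, 33.9% of all genes). The count with groups that did not overlap (14) ranged from 13 to 34 on leaving out a cow, the 34 without cow 489215 beside 52.0% of all genes. No share of all genes is given for the low ends of both ranges or for the 27, so they are not read as results about the calcium genes. The median log2 fold change of the calcium genes (-0.29) ranged from -0.486 to 0.0337 on leaving out a cow, turning above 0 without cow 489215 only, and was 0.0033 in edgeR without that cow. On leaving out a cow, the difference in the log2 ratio of PLN to ATP2A2 (0.21) ranged from -0.55 to 0.72, while those of ITPR1 to ITPR3 (-3.12 to -1.44) and STIM1 to ORAI1 (-0.90 to -0.61) stayed below 0, with exact permutation p-values that cannot fall below 0.2 for 2 against 3 cows. Of the 29 tested genes with values in every cow, not counting ATP2A3, which was added later, 6 changed the sign of their log2 fold change on leaving out a cow. Over these fits ATP2B1 ranged from -0.267 to 0.144, ITPR2 from -1.12 to 0.675, ORAI3 from -0.288 to 0.305 and TRPC4AP from -0.184 to 0.00872, each turning without cow 489215, PLN from -0.703 to 0.122, turning without cow 856, and TRPM7 from -0.0955 to 0.304, turning without cow 856 or cow 97. ITPR2 also had the opposite sign in edgeR with TMM (0.13), in edgeR with DESeq2 size factors (0.15) and in DESeq2 (0.15). The other 225 of 232 values under other settings and 148 of 171 on leaving out a cow kept their direction and their side of the threshold, and the rest passed the threshold only under the alternative. Without cow 856, the SD of ATP2C2, ITPR3 and TRPM1 kept them from being tested. The cause of these changes was not tested. The group of 3 cows sets the precision, and for CASQ2, TRPM1, TRDN and others with few reads so does depth.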
